A study of Ovis aries with 16 samples.

Results

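The globins measured in the fetal sheep hypothalamus were cytoglobin (CYGB) and the beta-type chains of hemoglobin (HBB). All probes were taken whose gene name on the array was CYGB or HBB, or whose description contained the word hemoglobin. This found 3 globins on 4 of 15008 probes: 1 probe for CYGB, 2 for HBB and 1 described as the fetal hemoglobin beta subunit but carrying no gene name. Hypothalamus was collected from 16 late-gestation Suffolk fetuses 24 h after the onset of 30 min of normoxia or of maternal ventilatory hypoxia, given after intravenous saline or ketamine. The groups were normoxia with saline (NC, n = 3), normoxia with ketamine (NK, n = 4), hypoxia with saline (HC, n = 5) and hypoxia with ketamine (HK, n = 4). All fetuses, including the controls, carried vascular catheters, and RNA of each fetus was hybridized to 1 array. Ketamine is an anesthetic and an antagonist of the NMDA-type glutamate receptor.

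Hemoglobin is the oxygen carrier of red cells and is built from alpha-type and beta-type chains. Sheep carry several beta-type genes, and the fetal beta-type chain is replaced by the adult chain around birth. Cytoglobin is a haem protein of tissue rather than of red cells, found in fibroblast-like cells, pericytes and some neurons. It binds oxygen and converts nitric oxide to nitrate. RNA of a tissue block holds RNA of the blood left in its vessels, so hemoglobin transcripts in brain can come from red cells in the block.

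The probe sequences are shown because not all of the hemoglobin probes moved together, and a reader may want to know what each one binds. They are printed 5′ to 3′ as the scanner files give them, and capitals mark the longest run of bases that the probe shares with any other probe on the array, on either strand.
HBB: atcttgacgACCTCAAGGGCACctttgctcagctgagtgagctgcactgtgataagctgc
second HBB probe, bases 31 to 60: tttctcttTGCTGCACAAAACTAatctttt
fetal hemoglobin beta, bases 1 to 30: aAAGTCCAGGTTTgcagaaaggacacaact
CYGB: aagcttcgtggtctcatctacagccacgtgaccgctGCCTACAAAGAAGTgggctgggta
Each probe was 60 bases long. The shared runs were 13 bases for the HBB probe (A_70_P051261), 15 for the second HBB probe (A_70_P061046), 12 for the fetal probe (A_70_P022102) and 14 for the CYGB probe (A_70_P027841). Between any pair of the 4 globin probes, the longest shared run was 7 bases. The HBB probe was the brighter of the probes named HBB and represents the gene below. The array design assigns it to the HBB transcript and also to that of HBBC, a neighbouring beta-type gene on the same chromosome, so its signal cannot be divided between these genes. The second HBB probe was designed on an expressed sequence tag from adult sheep callus and the fetal probe on an assembled transcript, and which beta-type genes they bind was not stated. No other gene of a globin family list had a named probe except myoglobin (MB), the oxygen store of muscle, with 2 probes that share 59 bases. In all, 3 of the 19 genes of that list had a named probe. Probes without a gene name were searched only for the word hemoglobin in their description.

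All 4 globin probes were well above background on 16 of 16 arrays, and none was saturated. Levels are given in log2 units above or below the 75th percentile of the array, and the levels of different probes are not compared. Between 71.6% and 80.5% of spots were well above background on each array. The arrays lay on 2 slides of 8 arrays, each slide with all 4 groups, but the second held only 1 NC array. Genes were compared with limma across the 12249 probes with signal, and a change was called at an unadjusted p under 0.05. Of the 16 hypothalamic genes used to check the tissue, 7 were tested. OXT, SST, POMC, PMCH, GNRH1 and NPY were well above background on 16 arrays and AGRP on 15, and none was called in any comparison. The 6 oligodendrocyte markers had no named probe on the array. The number of arrays limits the precision of every value.

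CYGB was higher in fetuses given ketamine before hypoxia than in any other group mean. In NC the levels were -2.69, -2.94 and -2.93 (mean -2.85 ± 0.142, SD, n = 3). In NK they were -2.87, -2.78, -2.94 and -2.83 (mean -2.86 ± 0.068, SD, n = 4). These groups covered nearly the same levels. In HC they were -3.08, -2.84, -2.83, -2.87 and -2.77 (mean -2.88 ± 0.12, SD, n = 5). In HK they were -2.28, -2.61, -2.25 and -2.77 (mean -2.48 ± 0.255, SD, n = 4). HK1 and HK3 were the highest of all 16 fetuses, HK2 was next, and HK4 lay among the highest values of the other groups. The spread within HK was also the widest of the 4 groups.

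**Figure D1:**
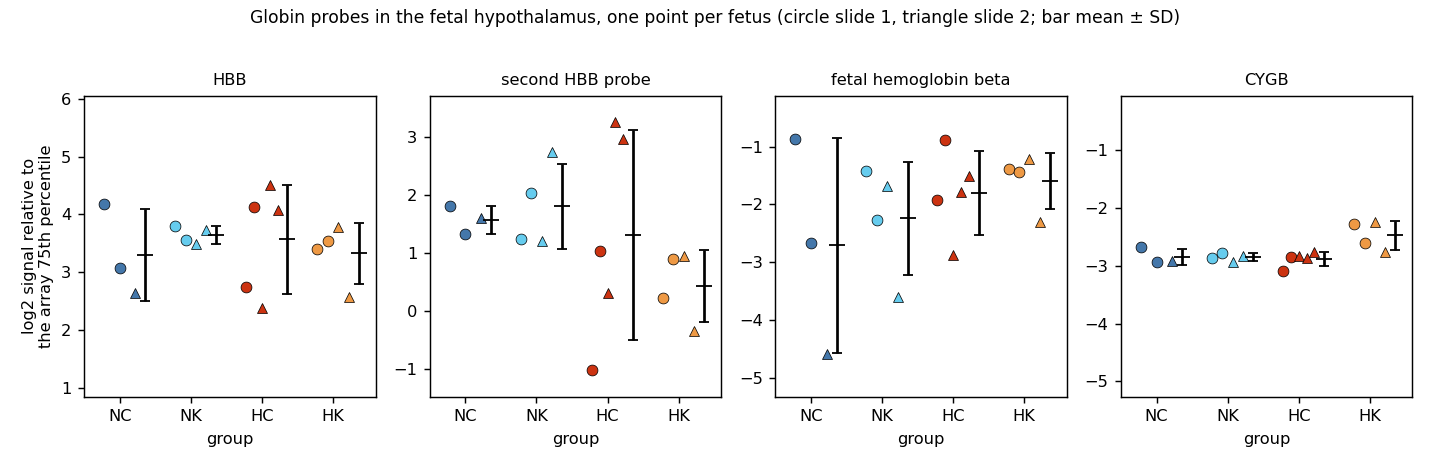
Log2 level against the 75th percentile of the array (y axis) of the 4 globin probes in the 4 groups (x axis), with 1 point per fetus, circles for slide 1, triangles for slide 2 and bars for the mean ± SD. All panels span the same number of log2 units. CYGB lies within 0.838 log2 units over all 16 fetuses, with HK1 and HK3 on top, while the hemoglobin probes span 2.12 to 4.29 log2 units.

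CYGB was 1.32-fold higher with ketamine given before hypoxia than with hypoxia alone (HK against HC, log2 change 0.40 ± 0.111, SE, 95% confidence interval 0.164 to 0.641). The change was called by limma, and the exact permutation test of the group means gave p = 0.0159 (two-sided, the smallest that 4 against 5 allows). In this comparison 7.04% of all tested probes were called, 3.25% as higher and 3.79% as lower. CYGB ranked 41 by p among the 12249 probes, and it did not pass after Benjamini-Hochberg adjustment over all of them (limma, adjusted p = 0.685), nor did any other probe. The HK and HC arrays did not overlap, which held for 1.55% of tested probes, but the lowest HK array lay only 0.0025 log2 units above the highest HC array. Before scaling between arrays, 3 HC arrays exceeded the lowest HK array. With normexp background correction 2 did, and in the deposited log2 values 1 did. In those deposited values the change was 0.257. The difference was 0.517 on slide 1 and 0.316 on slide 2.

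Under ketamine, CYGB was 1.30-fold higher with hypoxia than with normoxia (HK against NK, log2 change 0.38 ± 0.117, SE, 95% confidence interval 0.127 to 0.63, limma, adjusted p = 0.377). This change too was called, with p = 0.0286 in the exact permutation test (two-sided, the smallest that 4 against 4 allows). Here 8.69% of tested probes were called, 2.38% as higher and 6.31% as lower, and 0.00816% passed after adjustment. The HK and NK arrays did not overlap, which held for 5.41% of tested probes, and the gap was 0.0095 log2 units. Before scaling, 1 NK array exceeded the lowest HK array. The difference was 0.378 on slide 1 and 0.379 on slide 2. Leaving out any 1 fetus left CYGB called in both comparisons, between 0.326 and 0.50 for HK against HC and between 0.302 and 0.476 for HK against NK, lowest in each without HK3. Both comparisons share the HK fetuses.

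Neither stimulus alone was followed by a called change of CYGB. Hypoxia without ketamine gave -0.03 ± 0.121 (HC against NC, log2 change, SE, exact permutation p = 0.821), with an interval of -0.289 to 0.23. In this comparison 8.15% of tested probes were called, 4.22% as higher and 3.93% as lower, and none passed after adjustment. Ketamine without hypoxia gave -0.006 ± 0.126 (NK against NC, exact permutation p = 0.857, with 0.0571 the smallest that 4 against 3 allows), with an interval of -0.277 to 0.266. Here 1.09% of tested probes were called, 0.865% as higher and 0.22% as lower. As folds, the intervals run from 0.818 to 1.17 for hypoxia alone and from 0.825 to 1.20 for ketamine alone.

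The effect of ketamine on CYGB differed between hypoxia and normoxia at the unadjusted threshold. The interaction, HK against HC minus NK against NC, was 0.41 ± 0.168 (SE, 95% confidence interval 0.047 to 0.77, limma, adjusted p = 0.994). By comparison 3.8% of tested probes were called for the interaction, 1.31% as higher and 2.49% as lower. It was 0.529 on slide 1 and 0.278 on slide 2. It was no longer called without NC1 (0.326), NK3 (0.38), HC1 (0.357), HK1 (0.343) or HK3 (0.331), with array weights (0.371) or with a replicate block (0.41). In the deposited values it was 0.27 and called.

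HBB varied far more between fetuses than CYGB and was not called in any comparison. In NC the HBB levels were 4.17, 3.07 and 2.63 (mean 3.29 ± 0.793, SD, n = 3). In NK they were 3.80, 3.56, 3.49 and 3.74 (mean 3.65 ± 0.15, SD, n = 4). The NK fetuses lay close together within the range of NC. In HC they were 2.75, 4.12, 2.39, 4.51 and 4.08 (mean 3.57 ± 0.937, SD, n = 5). In HK they were 3.40, 3.54, 3.79 and 2.58 (mean 3.33 ± 0.524, SD, n = 4). The HC fetuses held both the highest and the lowest HBB of all 16, HC4 and HC3, which were 4.34-fold apart. All groups overlapped, while 4.92% of tested probes did not overlap between HC and NC and 2.32% between NK and NC.

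The HBB change was 0.28 ± 0.472 for HC against NC (log2, SE, 95% confidence interval -0.736 to 1.29, exact permutation p = 0.75). It was 0.35 ± 0.493 for NK against NC (exact permutation p = 0.4), -0.24 ± 0.433 for HK against HC (exact permutation p = 0.667) and -0.32 ± 0.457 for HK against NK (exact permutation p = 0.286). The interaction was -0.60 ± 0.657 (limma, adjusted p = 0.994). The intervals of the single comparisons reach changes of 1.58-fold to 2.66-fold upward, so a difference of the size seen for CYGB would lie well inside them. The HC against NC difference was -0.186 on slide 1 and 1.03 on slide 2, and without NC3 it was -0.052. In bulk tissue, fewer red cells in the block and less hemoglobin RNA per red cell cannot be told apart.

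**Figure D2:**
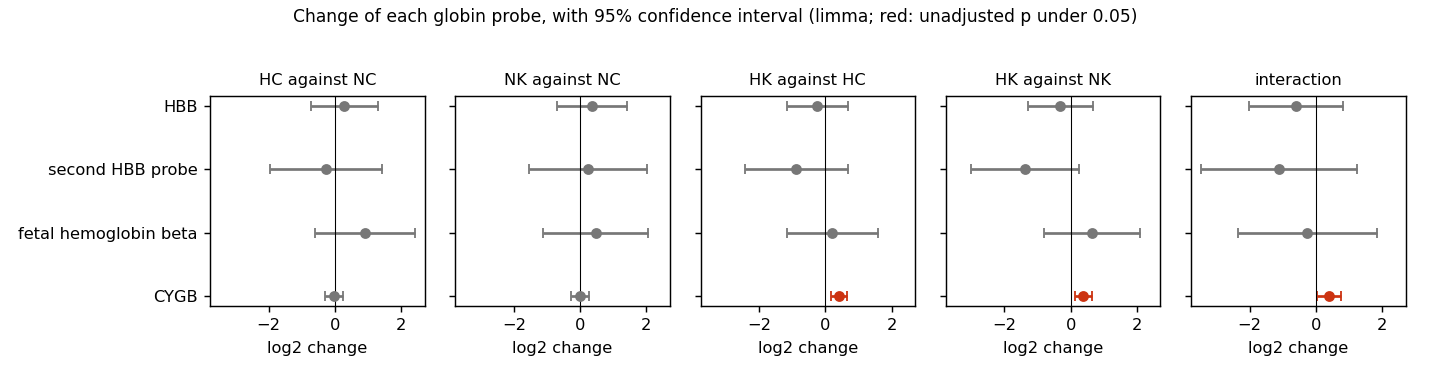
Log2 change (x axis) of each globin probe (y axis) in the 5 comparisons, with points for limma's estimate and bars for its 95% confidence interval, red where the unadjusted p was under 0.05. CYGB is red in the panels for ketamine before hypoxia (0.40), for hypoxia under ketamine (0.38) and for the interaction (0.41), and every hemoglobin interval includes 0.

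The second HBB probe varied more widely still. Its levels were 1.81, 1.33 and 1.60 in NC (mean 1.58 ± 0.241, SD, n = 3) and 1.24, 2.04, 1.22 and 2.75 in NK (mean 1.81 ± 0.735, SD, n = 4). In HC they were -1.03, 1.04, 0.308, 3.26 and 2.97 (mean 1.31 ± 1.81, SD, n = 5). In HK they were 0.219, 0.897, 0.954 and -0.341 (mean 0.432 ± 0.614, SD, n = 4). Every HK fetus lay below every NK fetus, and HC spanned from the lowest to the highest value of all, 19.5-fold apart. Of all tested probes, 5.41% did not overlap between HK and NK. The change for HK against NK was -1.38 ± 0.765 (log2, SE, limma, adjusted p = 0.668) and was not called when all 4 groups shared 1 estimate of the spread. It was called with only the HK and NK arrays in the fit (limma, adjusted p = 0.44). The exact permutation test gave p = 0.0286, the smallest it allows, which any full separation of these groups gives. For HK against HC the change was -0.88 ± 0.725 (exact permutation p = 0.365), and leaving out 1 fetus gave -0.392 without HC4, -0.464 without HC5 and -1.46 without HC1, of which only the last was called. It was 0.55 on slide 1 and -1.88 on slide 2. For HC against NC it was -0.27 ± 0.79 (exact permutation p = 0.857) and for NK against NC 0.23 ± 0.826 (exact permutation p = 0.743).

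The fetal hemoglobin beta probe ranked the fetuses differently. Its levels were -0.87, -2.67 and -4.58 in NC (mean -2.71 ± 1.85, SD, n = 3) and -1.42, -2.28, -1.68 and -3.60 in NK (mean -2.24 ± 0.975, SD, n = 4). In HC they were -1.93, -0.889, -2.88, -1.79 and -1.50 (mean -1.80 ± 0.724, SD, n = 5). In HK they were -1.39, -1.45, -1.22 and -2.31 (mean -1.59 ± 0.488, SD, n = 4). Both the highest and the lowest fetus were NC, 13.1-fold apart, and all groups overlapped. The change for HC against NC was 0.91 ± 0.70 (log2, SE, exact permutation p = 0.429). It was 1.83 and called without NC1, and -0.028 without NC3. The other changes were 0.47 ± 0.732 for NK against NC (exact permutation p = 0.686), 0.21 ± 0.643 for HK against HC (exact permutation p = 0.619) and 0.65 ± 0.678 for HK against NK (exact permutation p = 0.286).

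The within-group SD separated CYGB from the hemoglobin probes. It was 0.687 log2 units for HBB, at percentile 86.7 of tested probes, 1.15 for the second HBB probe (percentile 96) and 1.02 for the fetal probe (percentile 94.1). For CYGB it was 0.16 (percentile 28.9), below the median of all tested probes of 0.236.

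Across the 16 fetuses, HBB moved with each of the other hemoglobin probes, but those 2 did not move with each other. HBB and the second HBB probe correlated with Pearson's r = 0.685 and Spearman's rho = 0.626 (permutation p = 0.00372 and 0.0111, adjusted over 6 relations 0.0223 and 0.0334). Without HC3 and HK4, the fetuses farthest from the median of HBB, r was 0.604. It was 0.655 on slide 1 and 0.81 on slide 2. HBB and the fetal probe correlated with r = 0.591 and rho = 0.638 (permutation p = 0.0148 and 0.00908, adjusted 0.0445 and 0.0334), with r = 0.589 without the same fetuses, 0.756 on slide 1 and 0.548 on slide 2. The second HBB probe and the fetal probe had r = -0.104 and rho = -0.109 (permutation p = 0.7 and 0.685, adjusted 0.7 and 0.685), with -0.16 without HC1 and HC4 and 0.023 on either slide. In a linear fit over the 16 arrays, the second HBB and fetal probes together accounted for 91.2% of the variance of HBB, against 46.9% and 34.9% for each alone, with coefficients of 0.411 and 0.422. This fit is a description of these arrays and was not tested, and the 6 relations were chosen after the values were seen.

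The level of the second HBB probe minus that of the fetal probe within the same array ranged from 0.906 log2 units in HC1 to 6.36 in NK4, a 43.7-fold span between fetuses. It was 2.68, 4.00 and 6.18 in NC and 2.65, 4.31, 2.89 and 6.36 in NK. In HC it was 0.906, 1.93, 3.19, 5.06 and 4.48, and in HK 1.61, 2.34, 2.18 and 1.97. The HK fetuses lay close together below all NK fetuses, while HC overlapped both. The size of this difference depends on the probes, and only its variation between arrays can be read. The difference of HK from NK was -2.03 log2 units (exact permutation test, two-sided, p = 0.0286, the smallest that 4 against 4 allows, adjusted over 4 comparisons 0.114). The other 3 comparisons had adjusted exact permutation p-values of 0.524 to 1.0. The mean over all arrays was 2.55 on slide 1 and 4.04 on slide 2. Within slides, HK against NK was -1.51 and -2.55, while HK against HC was 0.557 and -2.17. This comparison was chosen after the values were seen.

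**Figure D3:**
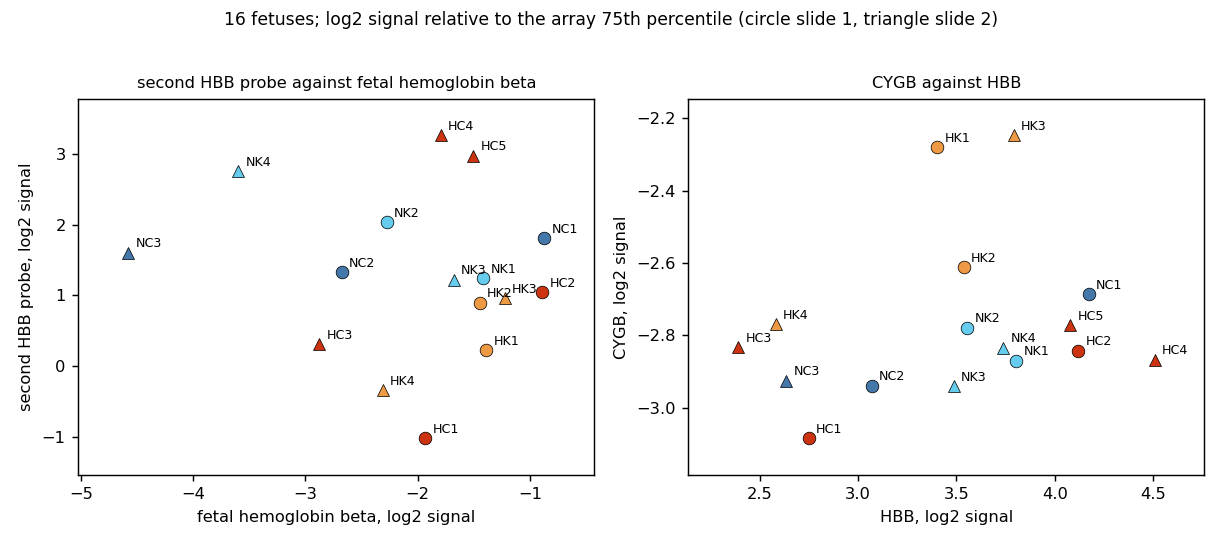
Left, log2 signal of the second HBB probe (y axis) against the fetal hemoglobin beta probe (x axis). Right, CYGB (y axis) against HBB (x axis). Each point is 1 of 16 fetuses, labelled by group and number, circles for slide 1 and triangles for slide 2. The left panel shows no common trend (r = -0.104), and on the right HK1, HK2 and HK3 lie above the other fetuses at middle levels of HBB (r = 0.232 over all).

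CYGB followed HBB weakly or not at all over the 16 fetuses. Pearson's r was 0.232 and Spearman's rho 0.182 (permutation p = 0.393 and 0.495, adjusted over 2 relations 0.393 and 0.495). Without HK4 and HC3 r was 0.245, on slide 1 it was 0.294 and on slide 2 it was 0.20. After each group's mean was subtracted, r was 0.556 and rho 0.479 (permutation p = 0.0251 and 0.0619, adjusted 0.0502 and 0.124). With quantile normalization, normexp correction and the deposited values, r without that subtraction was 0.128, 0.052 and 0.062.

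CYGB was still called as higher in HK when the hemoglobin signal of each fetus was in the fit. With HBB as a covariate, CYGB was 0.434 log2 units higher in HK than in HC and 0.42 higher than in NK. With the second HBB probe these values were 0.459 and 0.467, with the fetal probe 0.391 and 0.342, and with the mean of the 3 hemoglobin probes 0.44 and 0.421, all called. The interaction was 0.485, 0.48, 0.423 and 0.489 in these 4 fits, all called. The covariates other than HBB were added after the values were seen. In HK, HBB and the second HBB probe had lower means than in HC and NK, and the fits with them gave larger CYGB differences than the fit without a covariate. The fetal probe had a higher mean in HK, and the fit with it gave smaller ones. The part of blood in the CYGB difference was not tested by these fits.

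The difference CYGB minus HBB within an array asks whether these globins changed unequally. It was -6.86, -6.01 and -5.56 in NC, -6.67, -6.33, -6.43 and -6.57 in NK, -5.83, -6.96, -5.22, -7.38 and -6.85 in HC, and -5.68, -6.15, -6.04 and -5.35 in HK. It was 0.696 log2 units higher in HK than in NK, with every HK fetus above every NK fetus (exact permutation test, two-sided, p = 0.0286, the smallest possible, adjusted over 4 comparisons 0.114). It was 0.644 higher in HK than in HC (exact permutation p = 0.222, adjusted 0.444), and these groups overlapped. Within slides it was 0.587 and 0.805 higher in HK than in NK, and 0.482 and 0.789 higher than in HC. The other differences were -0.307 for HC against NC (exact permutation p = 0.679) and -0.359 for NK against NC (exact permutation p = 0.343). None passed after adjustment. The group sizes limit this outcome, since the smallest p that the exact test allows was 0.0159 to 0.0571 before adjustment.

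**Figure D4:**
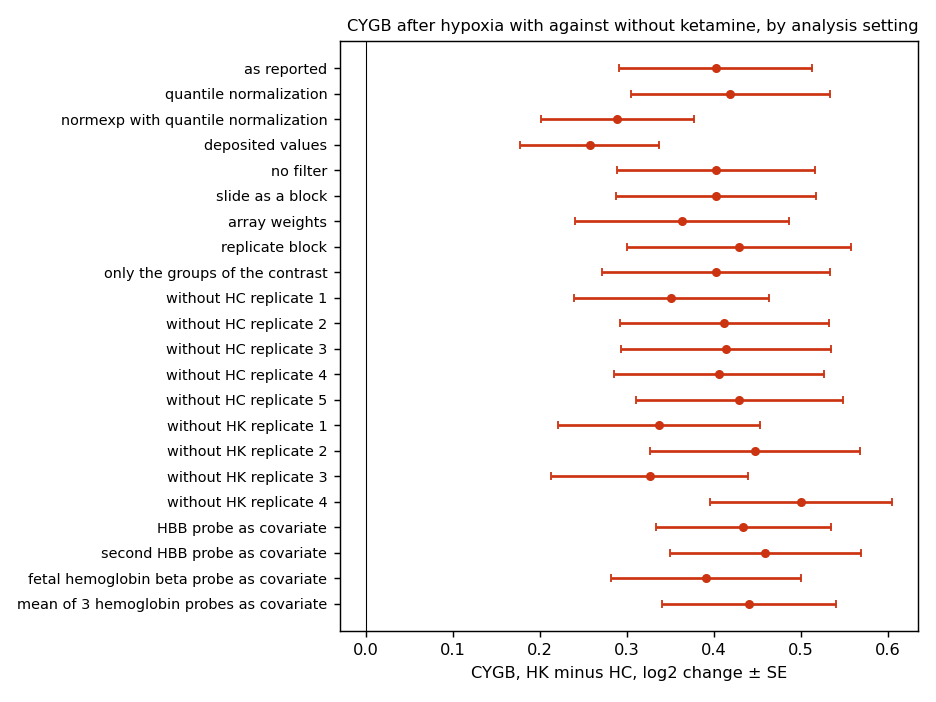
Log2 change of CYGB in HK against HC (x axis) with its standard error, for the reported fit and each alternative (y axis), including fits without 1 fetus and fits with hemoglobin as a covariate. Every estimate is above 0, from 0.257 in the deposited values to 0.50 without HK4.

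Red cell genes gave a further view of blood in the tissue. Of 18 listed red cell genes, 3 were tested, namely AHSP, CA1 and EPOR, and none was called in any comparison. The median change of the 3 was -0.158 for HC against NC, beside -0.027 over all tested probes, and -0.431 for HK against HC, beside 0.031. Their summed linear signal, relative to the 75th percentile, ranged from 0.0924 to 0.143 in NC, 0.109 to 0.177 in NK, 0.156 to 0.326 in HC and 0.114 to 0.248 in HK. The HC range lay above that of NC and overlapped those of NK and HK. Of single tested probes, 4.92% did not overlap between HC and NC. CA1, a carbonic anhydrase of red cells, was well above background on 5 arrays, none of them from HK.

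AHSP, the chaperone of free alpha hemoglobin chains in red cell precursors, is described here although its changes were not called, and it was chosen after its values were seen. It was well above background on 15 of 16 arrays. Its levels were -3.88, -5.00 and -5.31 in NC and -3.68, -6.44, -4.37 and -3.08 in NK. They were -5.48, -2.14, -3.37, -1.79 and -2.76 in HC and -5.19, -2.65, -3.37 and -2.95 in HK. Each hypoxic group had 1 fetus at the level of the low normoxic fetuses, and the others lay higher than most normoxic fetuses. The change for HC against NC was 1.62 ± 0.881 (log2, SE, limma, adjusted p = 0.669). In that comparison the other tested red cell genes changed in the opposite direction, CA1 by -0.591 ± 0.829 and EPOR by -0.158 ± 0.63. AHSP and HBB had r = 0.459 and rho = 0.476 (permutation p = 0.0749 and 0.0649, adjusted 0.15 and 0.13), with r = 0.497 without NK2 and HC1, 0.602 on slide 1 and 0.574 on slide 2.

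Some white cell genes were called as higher with hypoxia. In HC against NC, 4 of the 8 tested genes of a list of white cell, platelet and plasma genes were higher and none lower. Of all tested probes, 4.22% were called as higher. The median change of the list was 0.555, beside -0.027 over all tested probes. The called genes were LYZ (lysozyme, 2.01), CD3D (a T cell receptor subunit, 1.58), ITGAM (an integrin of myeloid cells, 0.742) and FCER1G (an Fc receptor chain, 0.449). Their adjusted p-values were 0.48 to 0.603 (limma). CD3D was well above background on only 1 of 3 NC arrays, and LYZ and ITGAM on 2 of 3. In HK against HC, where CYGB rose, none of the 8 was called and their median was -0.134. In HK against NK, where CYGB also rose, APOA1, a plasma apolipoprotein, was lower (-0.67) and the median was 0.096, and CD3D was lower for the interaction (-1.76). Of all tested probes, 6.31% were called as lower in HK against NK and 2.49% for the interaction. The summed linear signal of the 8 ranged from 6.12 to 8.45 in NC, 6.24 to 9.5 in NK, 4.98 to 10.2 in HC and 4.35 to 7.52 in HK. APOA1 weighed most in this sum, with a mean log2 level in NC of 2.27, beside -5.97 for LYZ and -6.53 for CD3D. The sum therefore says little about the white cell genes. The part of blood cells in the CYGB difference was not tested by these lists.

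The lists nearest to the known cells and chemistry of CYGB were small. Of pericyte and fibroblast genes, 3 of 16 were tested, and none was called in HK against HC (median -0.01). In HK against NK, 2 of the 3 were called as lower, beside 6.31% of all tested probes. These were DCN (decorin, a matrix proteoglycan, log2 change -0.921) and COL3A1 (a fibrillar collagen, -0.90), while VIM changed by -0.085 and was not called. COL3A1 was well above background on 3 of 4 HK arrays and on 4 of 5 HC arrays. COL3A1 was also lower in HC against NC (-0.686), and DCN was higher in NK against NC (0.551) and lower for the interaction (-0.899). The summed signal of the 3 ranged from 46.5 to 59.5 in NC, 54.1 to 58.8 in NK, 45.4 to 54.3 in HC and 49.8 to 52.4 in HK. VIM made up most of this sum, with a mean log2 level in NC of 5.57, beside 1.94 for DCN and -4.47 for COL3A1. The sum therefore says little about DCN and COL3A1. The part of pericytes and fibroblasts in the CYGB difference was not tested.

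Some markers of other cells were also called in the comparisons where CYGB rose. Of 2 tested neuron genes, GRIN1, a subunit of the NMDA receptor, was lower in HK against NK (-0.849, list median -0.518), and neither was called in HK against HC. Of all tested probes, 6.31% were called as lower in HK against NK. The summed signal of these neuron genes ranged from 2.82 to 3.4 in NC, 2.89 to 3.59 in NK, 2.31 to 3.49 in HC and 2.32 to 2.9 in HK. Most of it came from GRIA2, with a mean log2 level in NC of 1.44, beside -1.53 for GRIN1. Of 2 tested genes of microglia and macrophages, CD14, a receptor for bacterial lipopolysaccharide, was lower in HK against HC (-1.35), beside 3.79% of all tested probes. Both CD14 (1.34) and ITGAM were higher in HC against NC, beside 4.22% of all tested probes. Their summed signal ranged from 0.158 to 0.184 in NC, 0.11 to 0.22 in NK, 0.155 to 0.965 in HC and 0.118 to 0.378 in HK. Of 5 tested anterior pituitary genes, only LHB, a luteinizing hormone subunit, was called, as higher in HK against HC (0.193) and in HK against NK (0.208). Of all tested probes, 3.25% and 2.38% were called as higher in these comparisons. The 5 ranged from -0.797 (PRL) to 0.671 (CGA) in HK against HC. In HK against NK they ranged from -0.077 (POMC) to 0.994 (FSHB). Neither of the 2 astrocyte genes tested was called in any comparison. The part of these cells in the CYGB difference was not tested.

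Of nitric oxide genes, 3 of 13 were tested. NOS2, the inducible nitric oxide synthase, was higher in HC against NC (0.684) and lower in HK against HC (-0.634) and for the interaction (-0.94), opposite in sign to CYGB in the last 2. NOS3 had the sign of CYGB in those 2 (0.232 and 0.054) and was not called. NOS2 was well above background on 14 of 16 arrays, with 2 of 3 in NC and 3 of 4 in HK. ARG2, an arginase that uses the same substrate, was higher in HC against NC (0.281). Of all tested probes, 4.22% were called as higher in HC against NC. As lower, 3.79% were called in HK against HC and 2.49% for the interaction. Neither of the 2 oxidant defence genes tested was called in any comparison, with a median of -0.059 for HK against HC. The 1 tested gene of haem synthesis and breakdown changed by 0.074 or less in size in every comparison and was not called.

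Genes of the hypoxia response were called where CYGB was not. In HC against NC, 4 of 8 tested genes were higher and none lower, beside 4.22% of all tested probes called as higher. The median of the 8 was 0.399. The called genes were SLC2A3 (a glucose transporter, 1.05), NOS2, LDHA (lactate dehydrogenase A, 0.593) and HIF1A (the hypoxia-inducible factor subunit, 0.588). In HK against HC, 2 of the 8 were lower, SLC2A3 (-0.541) and NOS2, beside 3.79% of all tested probes. The median was -0.238. In HK against NK, SLC2A3 was higher (0.464) and no other was called, beside 2.38% of all tested probes called as higher. Of 8 tested endothelial genes, SELP (P-selectin, 4.70) and ICAM1 (an adhesion molecule, 2.42) were higher in HC against NC, and SELP was higher in HK against NK (3.24), where CYGB rose as well. SELP was well above background on 2 of 3 NC and 1 of 4 NK arrays, and ICAM1 on 2 of 3 NC arrays. OCLN, a tight junction protein, was higher in HK against HC (0.909) and for the interaction (0.98), beside 3.25% and 1.31% of all tested probes. The median of the 8 was 0.337 in HC against NC, where OCLN was lowest (-0.601). It was -0.12 in HK against HC, where SELP was lowest (-1.80), and 0.333 in HK against NK, where FLT1 was lowest (-0.725). None of these lowest changes was called. The summed linear signal of the 8 ranged from 1.49 to 1.86 in NC, 1.55 to 1.99 in NK, 1.54 to 4.98 in HC and 1.59 to 2.79 in HK. Of the 4 iron handling genes, CP (ceruloplasmin) was called as lower in HK against HC, where it was well above background on no HK array.

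MB was not called by either of its probes in any comparison. Over both probes and the 4 pairwise comparisons, its changes ranged from -0.228 ± 0.403 to 0.147 ± 0.432 (log2, SE). The probe used for the lists was well above background on 14 of 16 arrays.

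Among 669 named genes, those with levels most like CYGB over the 16 arrays included CHCHD3 (r = 0.764, rho = 0.518), SLC25A11 (r = 0.675, rho = 0.515), SLC25A26 (r = 0.643, rho = 0.344) and ARF1 (r = 0.64, rho = 0.444). CHCHD3, SLC25A11 and SLC25A26 encode mitochondrial proteins. The least like was the probe named EIF4GI (r = -0.861, rho = -0.547), a translation initiation factor, followed by C-JUN (r = -0.761, rho = -0.632) and DKC1 (r = -0.70, rho = -0.432). With group means subtracted, r was 0.434 for CHCHD3 and -0.657 for EIF4GI. The names most like HBB were MADCAM1 (r = 0.727, rho = 0.697), LOC780457 (r = 0.71, rho = 0.806), LOC100101231 (r = 0.652), CCNA2 (r = 0.633) and LOC100037674 (r = 0.631), and the least like were AGTR1 (r = -0.695), LOC780773 (r = -0.676) and GGTA1 (r = -0.655). These correlations rank genes within 1 set of arrays and carry no test.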

How the data were processed

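RNA of 16 fetal hypothalami was measured on 1-color Agilent sheep arrays with Cy3 label. The authors deposited scanner files, written by Feature Extraction 10.1.1.1 per the file headers, with intensity values for 15744 spots, background-subtracted within the array and not normalized between arrays. The authors also deposited a table of log2 values whose method is not given in the sources used here. Its order within each array was that of median foreground minus local background (Spearman's rho = 1), and its column medians were 8.473 to 8.475.

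Control spots (536) and spots marked as outliers (0.0801%) were left out. Log2 processed signal minus the array's 75th percentile (1248 to 1597 intensity units) was averaged over spots of a probe, and tests ran on the 12249 of 15008 probes that 3 or more arrays measured well above background. Groups came from the labels. A model of 4 groups was fitted in R 4.3.3 with limma 3.58.1 (13.7 total degrees of freedom, two-sided), with an unadjusted threshold of 0.05 as in the study and Benjamini-Hochberg adjustment. Exact permutation tests of each globin probe were added after the values were seen. Within-array differences and correlations used permutation tests (exact, or 100000 resamples) in scipy 1.17.1 and Python 3.11.15. The procedure was tested on simulated data.

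RefSeq accessions were named through sheep genes of a RefSeq table (726 of 750 probes matched), and no coordinates are given because the probes' build is not stated. Only 1656 probes had a gene name. Most fetuses were twins, littermates are not named, and relatedness was not modelled. Genes of a list were represented by their brightest probe, and up to 4 called genes per list and comparison are named. For likeness, the 5 most and 3 least correlated named genes are given, except 1 that is not reported here. Alternatives were other normalizations, no filter, slide or replicate number as a block, array weights, fewer groups, each array left out and hemoglobin covariates. The members, lists and tests were chosen with earlier results of these data known.

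Replicate numbers are shared between groups. The 21 pairs of arrays with the same number had correlations of their deviations from the group means between -0.0599 and 0.347 (median 0.224, against -0.0979 for pairs with other numbers). Arrays with the same number lay on the same slide, and the labels do not tie the numbers to animals, so they were not taken to pair the samples.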

Additional observations from a re-analysis of the deposited data

Results flagged for a closer look

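At the unadjusted threshold only, the ketamine effect on CYGB differed between hypoxic and normoxic fetuses, with an interaction of 0.408 log2 units (limma, adjusted p = 0.994). Of all tested probes, 3.8% were called for the interaction. For CYGB the call was lost without NC1, NK3, HC1, HK1 or HK3. This interaction was set apart because the test of the difference between the 2 oxygen conditions was called. In the 12 checks of a group of 4 or 5 fetuses for 1 far value, over 4 globin probes and the groups NK, HC and HK, no fetus stood out.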

How the results depend on the processing

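CYGB remained called in every alternative fit with a test, from 0.257 to 0.50 for HK against HC and from 0.262 to 0.476 for HK against NK, with adjusted p-values of 0.249 to 0.978 and 0.186 to 0.702. The CYGB interaction was not called with array weights (0.371) or the replicate block (0.41), and leaving out 1 fetus gave 0.326 to 0.506. Uncalled changes near 0 turned sign. CYGB in HC against NC ranged from -0.074 to 0.052 and in NK against NC from -0.051 to 0.076 when 1 fetus was left out, and the latter was 0.02 with the replicate block. HBB in HC against NC ranged from -0.052 to 0.718 and in HK against HC from -0.537 to 0.007, and on slide 2 alone HBB was 1.025 in HC against NC and -1.451 for the interaction. On slide 1 alone the second HBB probe was -1.559 in HC against NC, 0.55 in HK against HC and 0.479 for the interaction, and on slide 2 alone the fetal probe was 2.52 in HC against NC, 1.94 in NK against NC and -1.647 for the interaction. For the second HBB probe, leaving out 1 fetus gave -0.754 to 0.318 in HC against NC and -0.081 to 0.431 in NK against NC, where the replicate block gave -0.049. For the fetal probe it gave -0.028 to 1.827 in HC against NC, -0.471 to 1.384 in NK against NC, -0.062 to 0.446 in HK against HC and -1.176 to 0.678 for the interaction, which was 0.034 in the deposited values. The correlation of CYGB with HBB passed the unadjusted threshold only after group means were subtracted (0.556). The cause of these changes was not tested. The replicate block changed no other call of the globin probes, and arrays with the same number lay on the same slide.

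The number of probes called moved by over 1.5 times in some fits: in HC against NC from 998 to 620 without NC2, in NK against NC from 133 to 88 with normexp, 267 with array weights, 220 with only those groups, 232 without NC1 and 231 without NK1, in HK against HC from 862 to 522 with only those groups and 507 without HK3, in HK against NK from 1065 to 1645 and for the interaction from 466 to 772, both with array weights. Scaling moved the split of calls, which for HK against HC was 398 higher and 464 lower as reported but 509 and 384 in the deposited values, and for the interaction 161 and 305 against 251 and 161. The median change of all tested probes moved by less than 0.1 under each scaling. Depth in the sense of signal did not limit the 4 globin probes, which were above background on every array. With 3 to 5 fetuses a group, the spread between fetuses limited the hemoglobin probes. The within-group SD of CYGB was below the median of all tested probes.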
